A study of Homo sapiens with 6 samples.

Results

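The 8 genes described here were taken by name from the deposited table of 58735 genes, which gives counts and FPKM (fragments scaled by gene length and library size) for each library. They encode proteins that shorten or lengthen the life of mRNAs with AU-rich or stem-loop elements in their 3' untranslated region (UTR): ZFP36, ZFP36L1, ZFP36L2, ZC3H12A, ZC3H12C, RC3H1, ELAVL1 and KHSRP. All 8 names matched exactly 1 row, and all 8 were among the 15881 genes that passed the filter on low counts. The libraries came from MDA-MB-231, an established cell line of triple-negative breast cancer with the genotype WT, whose cells carried the membrane dye PKH26 and had then grown for 12 days. Slow-cycling cells (SCC, PKH26hi) were the brightest 1% in the sort. Rapid-cycling cells (RCC) are called PKH26lo in the sample characteristics and moderate in dye in the protocol. Each group had 3 biological replicates, and the sort gate is the one difference between the groups that the labels give. The title ties the study to AP-1 and dormancy in this cancer.

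AU-rich elements mark short-lived mRNAs, among them those of cytokines, growth factors and immediate early transcription factors. Proteins of the ZFP36 family bind the motif UUAUUUAUU through a pair of CCCH zinc fingers and recruit the CCR4-NOT complex, which removes the poly(A) tail before the mRNA is decapped or degraded by the exosome. ZC3H12A (Regnase-1) is an endoribonuclease that cuts stem-loops of inflammatory mRNAs, RC3H1 (Roquin-1) binds such stem-loops and recruits deadenylases, KHSRP promotes decay, and ELAVL1 (HuR) binds AU-rich sequences and stabilises the mRNA. In epithelial and immune cells ZFP36 and ZC3H12A are known as inducible feedback genes that serum, stress and inflammatory signals switch on.

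The libraries held 17655855 to 27831824 counts. SCC replicate 1 stood apart from the others with GC content. In the tenth of tested genes richest in GC its median log2 deviation from the mean of the 6 libraries was 0.41. The other libraries stood at -0.16 to 0.03. Values without SCC replicate 1 are given for the factors, the lists and the called targets. Mitochondrial genes took 4.45% to 4.75% of counts in SCC and 3.77% to 3.96% in RCC, and their part in the results was not tested. The line's markers VIM and CD44 summed to 179 to 197 FPKM in SCC and 180 to 192 in RCC, and ESR1, PGR and CDH1, which the line lacks, summed to 0.13 FPKM or less in every library. Of the other cell types' markers, 6 leukocyte and blood genes summed to 0.26 to 0.50 FPKM in SCC and 0.31 to 0.40 in RCC. The 4 endothelial and stromal genes summed to 1.61 to 2.05 and 1.28 to 1.44 FPKM, mostly COL1A1, and their part in the results was not tested.

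The sequences that follow show which of the factors' own mRNAs carry the ZFP36 motif. In the annotated 3' UTR of the principal transcript (GENCODE release 29, GRCh38), ZFP36, ZFP36L1, ZFP36L2 and ELAVL1 each held 1 copy of the nonamer UUAUUUAUU, while ZC3H12A, ZC3H12C, RC3H1 and KHSRP held 0. Such a site was present in 8.60% of the 12590 tested protein-coding genes for which this choice of transcript gave a 3' UTR. Sites are printed 5' to 3' as RNA, with the motif in capitals and its flanks in lower case.

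ZFP36 (chr19:39409196-39409225, plus strand): uaugacgacuUUAUUUAUUcuaauaugauu
ZFP36L1 (chr14:68788076-68788105, minus strand): aacuguuggaUUAUUUAUUuuagaaauucc
ZFP36L2 (chr2:43223447-43223476, minus strand): acuauuuaacUUAUUUAUUaucuugugaaa
ELAVL1 (chr19:7961827-7961856, minus strand): auuuauguauUUAUUUAUUgaagugugaaa

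The UTRs differed in length, with 713 bases in ZFP36, 764 in KHSRP, 4904 in ELAVL1 and 7507 in RC3H1. The ZFP36 site started 507 bases into its UTR. RC3H1 held 2 copies of the shorter core UAUUUAU and 21 of AUUUA without a full nonamer, whereas ZC3H12A and KHSRP held 0 of either. The principal ZC3H12C transcript has the shortest UTR of the 8, at 197 bases. The gene's longest annotated UTR, of 6104 bases, held 1 nonamer.

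Of the 8 factors, 2 were higher in slow-cycling cells: ZFP36 by 2.48-fold and ZC3H12A by 2.55-fold. The other 6 did not pass the test, with fitted folds of 0.92 to 1.24. Of all tested genes, 1.69% were called higher and 2.07% were called in either direction. A call means a Benjamini-Hochberg adjusted p under 0.05 over all tested genes in the quasi-likelihood test of edgeR. Lower calls made up 0.378% of tested genes and none, 0 of 8, of the factors. At an unadjusted p under 0.05, 3 of the 8 were higher (ZFP36, ZC3H12A and ZFP36L2) and 0 lower, against 11.4% and 8.27% of all tested genes. DESeq2 and limma also called 0 of the 8 lower, and DESeq2 called 3.02% of all tested genes higher and 1.07% lower. The fit without SCC replicate 1 called 3.93% higher and 2.1% lower. With bulk libraries, more mRNA per cell and more cells that express a gene cannot be told apart. The labels call the replicates biological without saying that they were separate cultures, so p-values measure the spread between these libraries, which may be technical.

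ZFP36 (ENSG00000128016, chromosome 19, 39406813 to 39409412, plus strand), which encodes tristetraprolin, stood at 12.8, 9.04 and 9.41 FPKM in SCC replicates 1 to 3 and at 4.2, 4.42 and 4.1 FPKM in RCC replicates 1 to 3. The lowest SCC library lay well above the highest RCC library, and SCC replicate 1 was the highest of all. These values rest on 357 to 705 counts per SCC library and 148 to 196 per RCC library. On the log2 scale the fitted difference was 1.31 (standard error 0.147, edgeR adjusted p 7.5e-04). The fit that left out SCC replicate 1 gave 1.12 (standard error 0.112). A fit with an offset that evens out each library's trend with GC content gave 1.15. Only limma on log2(FPKM + 1) without a filter on low genes lost the call (adjusted p 0.073), at a log2 fold change of 1.11.

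ZC3H12A (ENSG00000163874, chromosome 1, 37474552 to 37484379, plus strand) stood at 6.90, 5.89 and 6.17 FPKM in SCC replicates 1 to 3. In RCC replicates 1 to 3 it stood at 2.36, 2.15 and 3.0 FPKM. The groups did not overlap, and the 3 SCC libraries lay close together. The fitted log2 difference was 1.35 (standard error 0.139, edgeR adjusted p 4.0e-04). Leaving out SCC replicate 1 gave 1.28, the GC offset gave 1.14, and the gene was called in all 17 alternatives. The microRNA gene MIR6732 lies in its exons over 60 bases and was listed at 0 counts in each library. The effect of this overlap on the counts of ZC3H12A was not tested.

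**Figure D1:**
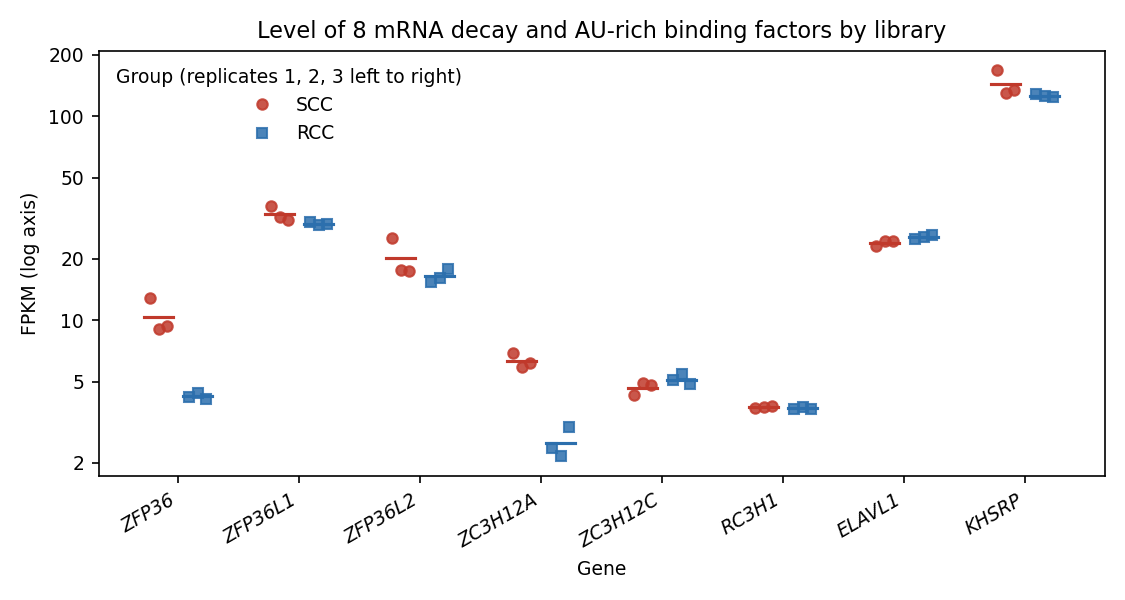
FPKM of the 8 factors (log axis) in the 3 SCC libraries (circles) and the 3 RCC libraries (squares), replicates 1 to 3 from left to right, with a line at each group's mean. ZFP36 and ZC3H12A are the genes whose groups lie far apart. SCC replicate 1 is the highest SCC library of ZFP36, ZFP36L1, ZFP36L2, ZC3H12A and KHSRP.

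The close relatives of ZFP36 moved less. ZFP36L1 (ENSG00000185650, chromosome 14, 68787660 to 68796253) binds the same motif and is phosphorylated by AKT and MK2. It stood at 36.5, 32.3 and 30.9 FPKM in SCC replicates 1 to 3 and 30.4, 29.2 and 29.6 in RCC replicates 1 to 3. The groups did not overlap, but the gap was small, and the log2 fold change of 0.17 (standard error 0.077) was not past the threshold (edgeR adjusted p 0.26). Without SCC replicate 1 it was 0.09.

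ZFP36L2 (ENSG00000152518, chromosome 2, 43222402 to 43226609) is the third member of the family and is known for its role in blood cell development. Its FPKM values were 25.4, 17.6 and 17.5 in SCC replicates 1 to 3 and 15.4, 16.1 and 17.8 in RCC replicates 1 to 3. SCC replicate 1 was the one high library, and the groups overlapped. The log2 fold change of 0.31 (standard error 0.137, edgeR adjusted p 0.25) fell to 0.10 without that library. When all genes with at least 1 count were tested, ZFP36L2 was called higher at the same log2 fold change of 0.31 (standard error 0.091, edgeR adjusted p 0.024). That fit called 995 genes higher, against 268 after the filter on low counts.

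As a share of the FPKM summed over the 3 family members, ZFP36 made up 17.2%, 15.3% and 16.3% in SCC replicates 1 to 3 and 8.41%, 8.88% and 7.97% in RCC replicates 1 to 3. ZFP36L1 remained the most abundant member in all 6 libraries, with 52.4% ± 3.13 (SD, n = 3) of the sum in SCC and 59.0% ± 1.66 in RCC. The share of ZFP36L2 was 31.4% ± 2.29 in SCC and 32.6% ± 1.86 in RCC, and overlapped between the groups.

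ZC3H12C (ENSG00000149289, chromosome 11, 110093361 to 110171841), a relative of ZC3H12A in the Regnase family, stood at 4.30, 4.93 and 4.83 FPKM in SCC replicates 1 to 3 and 5.11, 5.43 and 4.85 in RCC replicates 1 to 3. The groups overlapped, and the log2 fold change was -0.13 (standard error 0.082, edgeR adjusted p 0.40) or 0.02 with the GC offset. ZC3H12A had the lower FPKM of the pair in every RCC library and the higher one in every SCC library. In counts it was the lower one in every library, with 589, 361 and 407 in SCC replicates 1 to 3 against 1143, 941 and 992. The FPKM order in SCC thus depends on the gene lengths used, 3121 bases for ZC3H12A and 9719 for ZC3H12C. Which transcripts were expressed was not tested. The share of ZC3H12A in the pair's FPKM was 57.4% ± 3.76 (SD, n = 3) in SCC and 32.7% ± 4.99 in RCC, while the pair's summed FPKM was 11.0 ± 0.19 and 7.63 ± 0.20. The gene overlaps RDX on the opposite strand without sharing exon bases.

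RC3H1 (ENSG00000135870, chromosome 1, 173931214 to 174022297) was the steadiest of the 8 factors in FPKM. It ranged from 3.71 to 3.79 FPKM in SCC and from 3.68 to 3.77 in RCC, so that the groups overlapped. Its log2 fold change was 0.02 (standard error 0.072, edgeR adjusted p 0.88), or 0.15 with the GC offset.

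ELAVL1 (ENSG00000066044, chromosome 19, 7958579 to 8005659), the stabilising factor among the 8, was slightly lower in each SCC library, at 23.1, 24.4 and 24.5 FPKM in replicates 1 to 3. The RCC libraries stood at 25.0, 25.7 and 26.1 FPKM. The log2 fold change of -0.09 (standard error 0.062) was not past the threshold (edgeR adjusted p 0.44). The antisense gene AC010336.6, which shares 528 exon bases with ELAVL1, was listed at 0 counts in each library. The effect of this overlap on the counts of ELAVL1 was not tested.

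KHSRP (ENSG00000088247, chromosome 19, 6413348 to 6424794), a KH-domain protein that also acts in splicing, was the most abundant factor, at 168, 130 and 135 FPKM in SCC replicates 1 to 3 and 129, 126 and 124 in RCC replicates 1 to 3. SCC replicate 1 lay far above the rest. The log2 fold change of 0.20 (standard error 0.094, edgeR adjusted p 0.26) became 0.07 when SCC replicate 1 was left out and 0.01 under the GC offset. KHSRP has a GC content of 60.4%.

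Of the 8 factors, 5 had FPKM values that did not overlap between the groups: ZFP36, ZFP36L1, ZC3H12A and KHSRP were higher and ELAVL1 lower in SCC. Among all tested genes this was so for 27.7%. Of these 5 only ZFP36 and ZC3H12A passed the test, and the other 3 had fitted folds of 0.94 to 1.15.

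**Figure D2:**
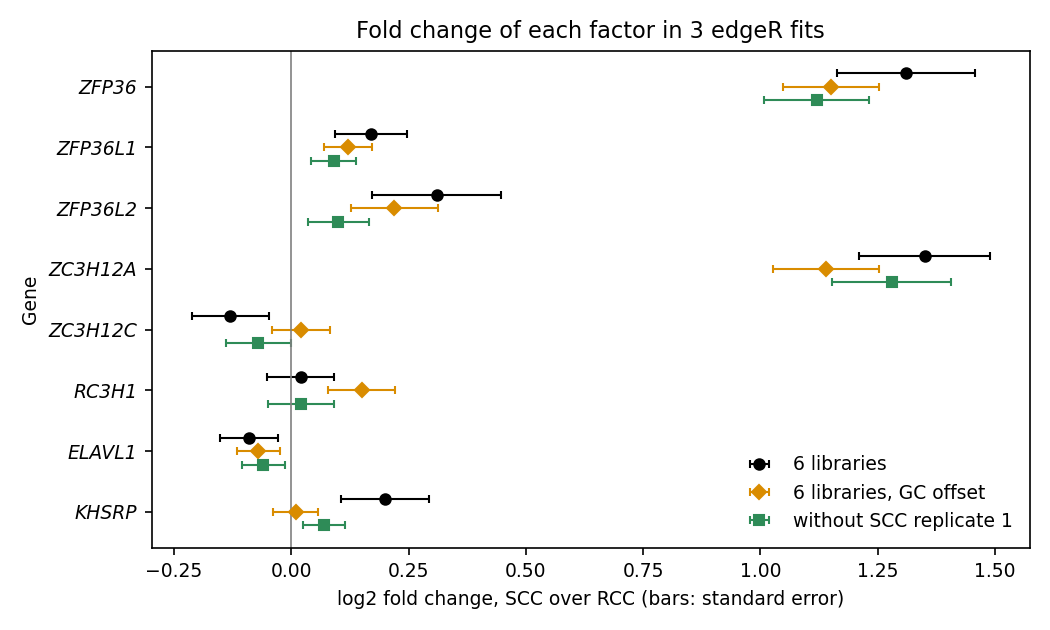
Log2 fold change of SCC over RCC for the 8 factors with its standard error, from edgeR on all 6 libraries, with an offset for GC content, and without SCC replicate 1. ZFP36 and ZC3H12A stay above 1 in each fit, whereas KHSRP moves from 0.20 to 0.01 with the offset and ZFP36L2 from 0.31 to 0.10 without the library.

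Ordered by mean FPKM, the RCC libraries gave KHSRP (126), ZFP36L1 (29.7), ELAVL1 (25.6), ZFP36L2 (16.4), ZC3H12C (5.13), ZFP36 (4.24), RC3H1 (3.71) and ZC3H12A (2.5). No neighbours in that order overlapped over the 3 libraries. In SCC the order was KHSRP (145), ZFP36L1 (33.2), ELAVL1 (24.0), ZFP36L2 (20.2), ZFP36 (10.4), ZC3H12A (6.32), ZC3H12C (4.68) and RC3H1 (3.75), and only ELAVL1 and ZFP36L2 overlapped. ZC3H12A, the lowest of the 8 in RCC, was therefore above ZC3H12C and RC3H1 in SCC, and ZFP36 was above ZC3H12C. These orders depend on the deposited gene lengths that FPKM divides by. In both groups ZFP36L1 and ELAVL1 had more FPKM than ZFP36.

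Ratios within a library do not depend on how libraries are scaled against each other. They can still carry a trend with GC content that differs between libraries, where the genes of a pair differ in GC. GC content is 61.6% in ZC3H12A, 37.1% in ZC3H12C, 58.2% in ZFP36, 47.5% in ELAVL1, 52.4% in ZFP36L1 and 54.4% in ZFP36L2. With the GC offset the fitted log2 fold changes were 1.14 and 0.02 for ZC3H12A and ZC3H12C, and 1.15 and -0.07 for ZFP36 and ELAVL1. The part of GC content in the ratios was not tested. The log2 ratio of ZFP36 to ZFP36L1 was -1.69 ± 0.17 (SD, n = 3) in SCC and -2.81 ± 0.07 in RCC, and that of ZFP36 to ZFP36L2 was -0.95 ± 0.05 and -1.95 ± 0.14. Relative to the stabiliser ELAVL1, ZFP36 stood at -1.22 ± 0.32 in SCC and -2.59 ± 0.07 in RCC. In linear terms there were 0.55, 0.37 and 0.38 FPKM of ZFP36 for each FPKM of ELAVL1 in SCC replicates 1 to 3, against 0.17, 0.17 and 0.16 in RCC replicates 1 to 3. The ratio of ZC3H12A to ZC3H12C was 0.43 ± 0.22 on the log2 scale in SCC and -1.05 ± 0.32 in RCC. All 4 ratios were higher in every SCC library than in every RCC library, by 1.12, 1.00, 1.37 and 1.48 in the order given, or by 1.03, 1.02, 1.19 and 1.35 without SCC replicate 1. The two-sided exact permutation p was 0.1 for each, which is the smallest that 3 against 3 libraries allow and is also 0.1 after adjustment over the 4 ratios.

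**Figure D3:**
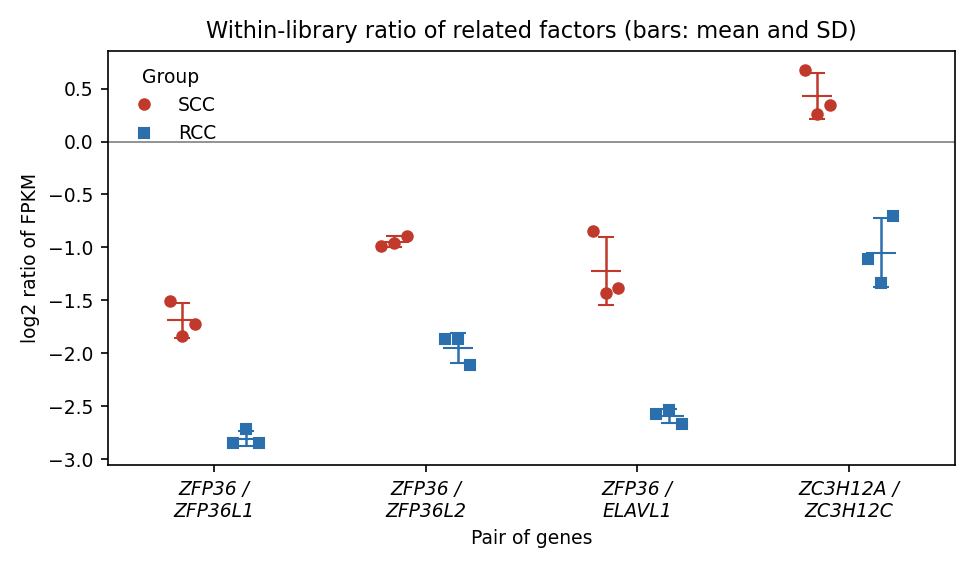
Log2 ratio of FPKM within each library for 4 pairs of factors, with the mean and SD over the 3 SCC libraries (circles) and 3 RCC libraries (squares). The groups are apart in all 4 pairs, and only the ratio of ZC3H12A to ZC3H12C changes sign, from -1.05 in RCC to 0.43 in SCC. The sign of a ratio depends on the gene lengths used in FPKM.

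The promoters of the factors that rose are shown because both genes moved by a similar amount. They are taken from RefSeq's GRCh38.p14 annotation, where an entry was found for 6 of the 8 factors, but not for ZFP36L2 and ELAVL1. They reach from 250 bases before to 50 bases after the start. Capitals mark the motifs found.

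ZFP36 (chr19:39406597-39406896, plus strand): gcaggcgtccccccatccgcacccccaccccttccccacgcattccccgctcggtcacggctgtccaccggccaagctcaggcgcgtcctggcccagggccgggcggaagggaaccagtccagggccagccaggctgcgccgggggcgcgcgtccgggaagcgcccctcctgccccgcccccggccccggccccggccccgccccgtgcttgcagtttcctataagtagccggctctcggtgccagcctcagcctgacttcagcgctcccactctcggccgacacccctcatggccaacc
ZC3H12A (chr1:37474330-37474629, plus strand): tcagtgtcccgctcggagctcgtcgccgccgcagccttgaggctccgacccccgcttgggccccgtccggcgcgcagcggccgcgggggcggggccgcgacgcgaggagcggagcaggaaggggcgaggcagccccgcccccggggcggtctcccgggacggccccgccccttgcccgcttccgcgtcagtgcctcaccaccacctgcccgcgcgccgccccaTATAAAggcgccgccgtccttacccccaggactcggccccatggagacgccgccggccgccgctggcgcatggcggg

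Both strands were searched for the AP-1 motif TGANTCA, the cAMP response element TGACGTCA, the CArG box, the kappa B site and TATAAA. ZC3H12A held 1 TATAAA, and ZFP36 held none of the motifs in this window. Among the factors that were not called, RC3H1 also held TATAAA, and KHSRP held none of the motifs. The RC3H1 window (chr1:173993023-173993322, minus strand, 28.7% GC) lies inside the gene, whose annotated 5' end is at 174022297. A ZFP36L1 promoter held the cAMP response element, and a ZC3H12C promoter held a kappa B site. Of all 35116 promoters in the table, 7.71% held the AP-1 motif, 1.85% the cAMP response element, 1.29% the CArG box, 11.3% the kappa B site and 11.5% TATAAA. Both windows were rich in GC, at 74.7% for ZFP36 and 79.0% for ZC3H12A.

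In the machinery that the factors recruit no gene was called, which is near the 2.07% called among all tested genes. Of 14 deadenylase genes (CCR4-NOT, PAN2-PAN3 and PARN), 20 genes of decapping and 5' to 3' decay and 16 genes of the exosome and SKI complexes, all were tested, and edgeR called 0 in either direction. At an unadjusted p under 0.05, 1 deadenylase gene was higher and 1 lower, and 2 decapping and 3 exosome genes were lower, against 11.4% higher and 8.27% lower among all tested genes. DESeq2 also called 0 in each list, as did limma on log2(FPKM + 1) over the genes that passed its filter. The median log2 fold changes were -0.05, -0.11 and -0.11, against 0.00 over all tested genes, and 0.01, -0.07 and -0.06 with the GC offset.

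For each list the gene of smallest p is described. The deadenylase CNOT6 stood at 14.8, 15.5 and 15.3 FPKM in SCC replicates 1 to 3 and 17.5, 18.6 and 17.9 in RCC replicates 1 to 3 (log2 fold change -0.23, edgeR adjusted p 0.09). EXOSC3, a cap subunit of the exosome, stood at 16.4 ± 0.56 FPKM in SCC and 19.8 ± 0.15 in RCC (SD, n = 3; log2 fold change -0.26, edgeR adjusted p 0.085). LSM5, part of the LSM ring that aids decapping, stood at 7.62, 11.9 and 10.8 FPKM in SCC replicates 1 to 3 and 12.4, 13.7 and 12.3 in RCC replicates 1 to 3 (edgeR adjusted p 0.21). In each of these genes the groups did not overlap, and SCC replicate 1 was the lowest library. When that library was left out, edgeR called CNOT6 (-0.22, adjusted p 0.0081) and EXOSC3 (-0.24, adjusted p 0.02) lower and the deadenylase PAN2 higher (0.37, adjusted p 0.038).

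Other proteins that bind AU-rich RNA were likewise not called by edgeR, with 0 of 13 tested genes past the threshold. At an unadjusted p under 0.05, 1 was higher and 4 were lower, where 11.4% and 8.27% of all tested genes were. DESeq2, which called 1.07% of all tested genes lower, called 2 lower (CELF1 and TIA1), and limma called 0. Their median log2 fold change was -0.09, or 0.00 with the GC offset. CELF1, which binds GU-rich and AU-rich RNA, had the smallest p, with FPKM of 15.8, 16.2 and 16.4 in SCC replicates 1 to 3 against 19.2, 19.2 and 19.0 in RCC replicates 1 to 3 (log2 fold change -0.24, edgeR adjusted p 0.073). The groups were well apart. When SCC replicate 1 was left out, edgeR called CELF1 (-0.23, adjusted p 0.0022), the translational repressor TIA1 (-0.26, adjusted p 0.0081) and FUBP1, a relative of KHSRP (-0.18, adjusted p 0.047), lower. CELF1 shares exon bases with NDUFS3 and PTPMT1 on the opposite strand, and EXOSC3 with AL138752.2 on its own strand. TIA1 shares 211 exon bases with C2orf42 on its own strand. The 4 genes of the list not tested were ELAVL2, ELAVL3, ELAVL4 and ZC3H12D.

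Among 21 kinases, phosphatases, 14-3-3 proteins and proteases that act on the factors, 1 was called, and it was higher, as were 1.69% of all tested genes. This was DUSP1, the phosphatase that switches off p38 MAP kinase and so opposes the MK2 phosphorylation that keeps ZFP36 protein inactive. DUSP1 stood at 92.3, 75.9 and 78.8 FPKM in SCC replicates 1 to 3 and 41.6, 41.5 and 43.9 in RCC replicates 1 to 3. Every SCC library was far above every RCC library, and the fitted log2 difference was 0.97 (standard error 0.086, edgeR adjusted p 1.5e-04), or 0.87 without SCC replicate 1. The median of the list was -0.01. When SCC replicate 1 was left out, the gene of the kinase MK2 itself, MAPKAPK2, was called higher (0.21, edgeR adjusted p 0.013) and the 14-3-3 gene YWHAQ lower (-0.15, adjusted p 0.048).

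mRNAs reported in the literature to be bound or destabilised by these factors were the list that moved. Of 38 such genes 31 were tested, and 12 of these (38.7%) were called higher and 0 lower, against 1.69% and 0.378% of all tested genes. The list and its members were chosen with earlier results of these data known, so its count is a description. Its median log2 fold change was 0.44, and 0.34 with the GC offset or 0.31 without SCC replicate 1. Without DUSP1, which is also in the list of regulators, 11 of 30 were called. At an unadjusted p under 0.05, 19 of the 31 were higher and 0 lower, against 11.4% and 8.27% of all tested genes. DESeq2 called 13 higher and 0 lower, against 3.02% and 1.07%.

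**Figure D4:**
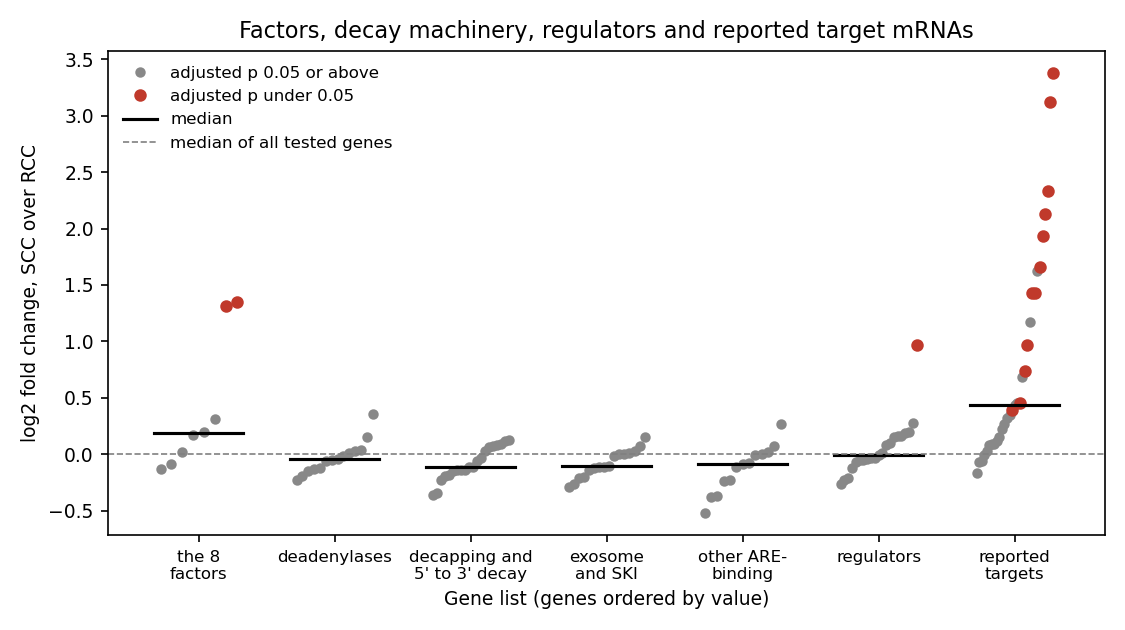
Log2 fold change of SCC over RCC for each tested gene of the 8 factors, the decay machinery, other AU-rich binding proteins, regulators and reported target mRNAs, with each list's median. Called genes are red: 2 factors, DUSP1 among the regulators, and 12 reported targets.

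The largest folds among the targets were those of the chemokine gene CXCL2, with 10.9 ± 0.34 FPKM in slow-cycling and 1.03 ± 0.24 in rapid-cycling cells (SD, n = 3), and of the AP-1 subunit gene FOS, with 32.6 ± 2.97 and 3.76 ± 0.08 FPKM. Their log2 fold changes were 3.38 and 3.12, with edgeR adjusted p of 1.5e-06 and 4.1e-08. TNFAIP3, a ubiquitin-editing brake on NF-kB, stood at 5.94 ± 0.57 and 1.19 ± 0.08 FPKM (log2 fold change 2.33). The neutrophil chemokine gene CXCL8 stood at 16.9, 28.1 and 26.0 FPKM in SCC replicates 1 to 3 and 4.66, 6.84 and 4.73 in RCC replicates 1 to 3. In this gene, of 32.3% GC, SCC replicate 1 was the lowest SCC library, but still above every RCC library. The fit that left out SCC replicate 1 gave TNFAIP3 2.29, CXCL8 2.32, FOS 3.04 and CXCL2 3.37 on the log2 scale. CXCL1, CXCL2 and CXCL3 have similar sequences, so that their counts are uncertain.

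NFKBIZ and IL6 are textbook substrates of ZC3H12A, and both were called. NFKBIZ, a coactivator of NF-kB target genes, stood at 9.22 ± 0.23 FPKM in SCC and 3.43 ± 0.13 in RCC (SD, n = 3), a log2 fold change of 1.43. The cytokine gene IL6 stood at 1.31, 1.57 and 1.30 FPKM in SCC replicates 1 to 3 and 0.38, 0.37 and 0.59 in RCC replicates 1 to 3, on 16 to 22 counts per RCC library (log2 fold change 1.66, edgeR adjusted p 0.01). Leaving out RCC replicate 1 or 2 ended the call of IL6 (adjusted p 0.092 and 0.068), and the gene shares 428 exon bases with the antisense gene AC073072.1. PTGS2, the inducible cyclooxygenase and a known target of ZFP36 and ELAVL1, stood at 2.12 ± 0.34 and 0.78 ± 0.10 FPKM (log2 fold change 1.43). Without SCC replicate 1 the values were 1.44 for NFKBIZ, 1.70 for IL6 and 1.56 for PTGS2, all called by edgeR.

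The other called targets had lower folds or less stable calls. IER3, an immediate early survival gene, had a log2 fold change of 0.74 and lost its call when RCC replicate 2 (edgeR adjusted p 0.067) or 3 (0.072) was left out. VEGFA and the kinase gene PIM1 had log2 fold changes of 0.39 and 0.45. Both lost the call without SCC replicate 3 or any 1 RCC library, with edgeR adjusted p of 0.071 to 0.17 for VEGFA and 0.084 to 0.20 for PIM1. CXCL3, on 5 to 23 counts per RCC library, had a log2 fold change of 1.93 and lost its call in the same 4 fits (0.058 to 0.14). The fit without RCC replicate 2 called 7 targets, and the fit without SCC replicate 1 called 15. In that last fit the log2 fold changes were 0.57 for IER3, 0.31 for VEGFA, 0.34 for PIM1 and 1.79 for CXCL3. IER3, TNFAIP3 and VEGFA share exon bases with antisense genes.

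Reported targets that were not called included highly expressed genes. The urokinase gene PLAU stood at 67.9, 70.8 and 74.6 FPKM in SCC replicates 1 to 3 and 67.9, 69.1 and 64.0 in RCC replicates 1 to 3, and its groups overlapped (log2 fold change 0.09). CCND1 (0.08), HIF1A (-0.06) and CCL2 (0.09) had log2 fold changes near 0 with all libraries. So did BIRC3 (-0.07), a less abundant gene at 1.95 FPKM in SCC and 2.04 in RCC. Without SCC replicate 1, CCND1 stood at 0.01, HIF1A at 0.02 and BIRC3 at 0.12, and CCL2 was called higher (0.20, edgeR adjusted p 0.042). IL11 had 6 nonamer sites, the most in the list, and a log2 fold change of -0.17 (edgeR adjusted p 0.30). With the GC offset it was called lower (-0.31, adjusted p 0.018), as were 1.47% of all tested genes. Other uncalled targets had a higher fitted level in SCC. CSF2 had a log2 fold change of 0.68 (edgeR adjusted p 0.057) and MYC of 0.27 (0.10). IL1B stood at 1.62 (0.093), on 4 to 9 counts per RCC library, and CXCL1 at 1.17 (0.11). DESeq2 called CSF2 higher (adjusted p 0.043), and edgeR with the GC offset called CSF2 (0.03) and MYC (0.036). All these uncalled genes were chosen after their values were seen.

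Sites of called targets are printed in the same form, to show how single nonamers in CXCL8, FOS, TNFAIP3 and PTGS2 compare with the overlapping run in CXCL2, whose second of 5 sites is given. DUSP1 held 2 sites that do not overlap, of which the one nearer the stop codon is shown.

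CXCL2 (chr4:74097585-74097614, minus strand): uucuauuuauUUAUUUAUUuauuuauuugu
FOS (chr14:75282060-75282089, plus strand): uguuuuuaauUUAUUUAUUaagauggauuc
TNFAIP3 (chr6:137882298-137882327, plus strand): guaauucacuUUAUUUAUUuuauuacaaac
CXCL8 (chr4:73742664-73742693, plus strand): auguaaaguaUUAUUUAUUugaaucuacaa
PTGS2 (chr1:186674316-186674345, minus strand): augaucauauUUAUUUAUUuauaugaacca
DUSP1 (chr5:172768642-172768671, minus strand): gggcugguccUUAUUUAUUuaacuucaccc

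The choice of transcript gave a 3' UTR for 30 of the 31 tested targets, all but MYC. Of these 30, 19 held at least 1 UUAUUUAUU, with a median log2 fold change of 0.68, and 8 of the 19 were called higher. Of the 11 without one, 4 were called, with a median of 0.35. NFKBIZ, IL6, IER3 and VEGFA were called and held 0 nonamers in the principal UTR. The principal UTR of VEGFA has 387 bases, and its longest annotated UTR, of 1925 bases, held 1 nonamer.

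Across all tested genes the nonamer went with little difference in level. Genes with 0, 1, and 2 or more sites had median log2 fold changes of 0.02, -0.02 and -0.05, and 1.92%, 2.03% and 3.28% of them were called higher, or 221 of 11507, 17 of 839 and 8 of 244 genes. Called lower were 0.191%, 0.596% and 0.82%. Genes with sites had longer UTRs (median 2753 and 3844 bases, against 994) and lower GC content (43.2% and 43.5%, against 48.7%), and the part of either in these shares was not tested. With the GC offset, 3.19% of all tested genes were called higher, and the shares by class were 3.6%, 4.77% and 6.15%, with medians of 0.00, 0.03 and 0.00.

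Tested genes were also divided into 3 equal classes by UTR length. In the class of longest UTRs, 1.2% of 750 genes with a site and 1.31% of 3447 without were called higher. In the middle class these shares were 5.04% of 258 and 2.62% of 3938, and in the shortest class 4% of 75 and 1.77% of 4122. With the GC offset the shares with and without a site were 4% and 3.77% in the class of longest UTRs, 7.75% and 4.24% in the middle class and 6.67% and 2.84% in the shortest. Genes with a site thus had the larger share called higher in all 3 classes with the offset. Without it this held in the middle and shortest classes. Genes with a site also had the larger share called lower in all 3 classes, with and without the offset. Without the offset these were 1.33% against 0.17% in the shortest class, 0.388% against 0.152% in the middle and 0.667% against 0.261% in the longest. With it they were 2.67% against 1.58%, 1.94% against 1.14% and 1.33% against 1.22%. From the shortest to the longest class, only 1, 1 and 5 genes with a site were called lower without the offset. With the offset the counts were 2, 5 and 10. In the shortest class, 3 genes with a site were called higher without the offset and 5 with it. No test was made of these differences.

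**Figure D5:**
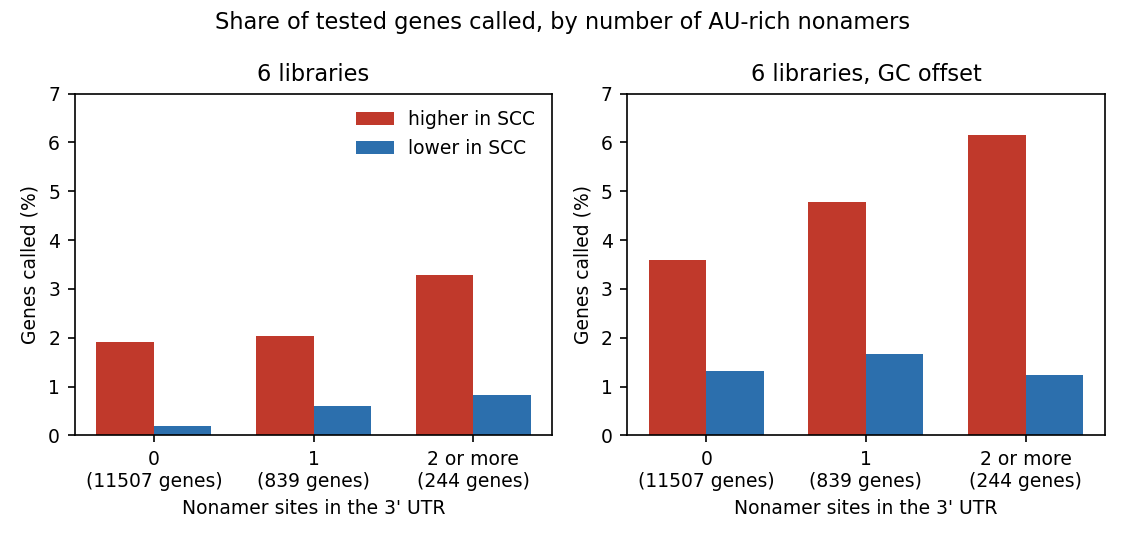
Share of tested genes called higher or lower in SCC (percent, bars from 0) by the number of UUAUUUAUU sites in the 3' UTR, without and with an offset for GC content. The share called higher is 1.92%, 2.03% and 3.28% without the offset and 3.6%, 4.77% and 6.15% with it.

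The protein-coding genes whose profile of log2 CPM (counts scaled by library size) over the 6 libraries, centred on its mean, lay nearest to that of ZFP36 by Euclidean distance were PPP1R15A (0.226), PER1 (0.280), PNRC1 (0.281), TP53INP1 (0.304) and ALPP (0.309). They were chosen by these values, which are given as a description. PPP1R15A, which encodes the phosphatase subunit GADD34 of the stress response, stood at 89.6, 77.0 and 76.3 FPKM in SCC replicates 1 to 3 and 34.0, 33.7 and 30.8 in RCC replicates 1 to 3. Like ZFP36 it was highest in SCC replicate 1. The clock gene PER1 stood at 4.54 ± 0.72 and 1.86 ± 0.16 FPKM (SD, n = 3) and PNRC1, a nuclear receptor coactivator, at 10.5 ± 1.71 and 4.62 ± 0.43. TP53INP1, a p53-induced gene, was low, at 0.65 ± 0.13 and 0.27 ± 0.002 FPKM. ALPP, an alkaline phosphatase with close paralogues whose reads it may share, stood at 15.7 ± 2.84 and 7.24 ± 0.71 FPKM.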

How the data were processed

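RNA-seq of 6 libraries was analysed from the deposited whole-number counts per gene and the deposited FPKM values. The submitters' processing notes name HISAT2 2.0.5 and featureCounts 1.5.0-p3. The genome build, strand setting and read filters are not given in the sources used here. All 58735 rows had the ID and position of GENCODE release 29 (GRCh38). No column of another sample was present.

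Counts were filtered with filterByExpr (minimum count 10), scaled by TMM and tested with edgeR 4.0.16 (glmQLFit, glmQLFTest, group only) in R 4.3.3, with Benjamini-Hochberg adjustment over 15881 genes and a threshold of 0.05. The standard error is the log2 fold change over the root of the F statistic. The code was tested on simulated data. Levels are deposited FPKM values. FPKM ratios were compared by two-sided exact permutation. Genes with a GC content numbered 15874 of those tested.

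The 8 members and 6 gene lists were chosen with earlier results of these data known. Named genes were all members, each list's called genes or else its smallest p, and 5 genes nearest to ZFP36. Alternatives were DESeq2 1.42.0, limma 3.58.1 on log2(FPKM + 1) or log2(FPKM + 0.1) at FPKM of at least 1 in 3 libraries, scaling, filters, a GC offset (lowess, span 0.3), the replicate block, and each library left out.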

Additional observations from a re-analysis of the deposited data

How the results depend on the processing

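ZFP36 and ZC3H12A were higher in SCC in all 17 alternatives and called in all of them, except ZFP36 with limma on log2(FPKM + 1) and no filter (1.11, adjusted p 0.073). ZFP36L2 was called when every gene with a count was tested (0.31). ZC3H12C turned to 0.02 with the GC offset and to 0.02 with the replicate block and GC offset. The other 4 factors kept their direction and stayed uncalled. Without SCC replicate 1, ZC3H12C stood at -0.07, RC3H1 at 0.02 and ELAVL1 at -0.06. The 4 ratios kept their direction in their 7 alternatives, which did not include the GC offset. The cause of each change listed here was not tested. Low counts limit targets such as CXCL3 and IL6.

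Same-numbered libraries did not deviate together (correlations -0.009, 0.025 and -0.079), so the numbers were not taken as pairs. With the replicate block 350 genes were called higher and 106 lower, ZFP36 stood at 1.29 and ZC3H12A at 1.35, and 1 other AU-rich binding protein, TIA1, was called lower. The block moved no call of the 8 factors.

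Against 268 genes higher and 60 lower, DESeq2 called 480 and 170, the GC offset 507 and 234, the block with GC offset 605 and 425, no count filter 995 and 315, log2(FPKM + 1) 130 and 36, log2(FPKM + 0.1) 117 and 34, and log2(FPKM + 1) without a filter 48 and 1. Leaving out a library gave 99 (RCC replicate 1 or 2) to 642 (SCC replicate 1) higher and 8 (RCC replicate 1) to 343 (SCC replicate 1) lower.

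With the GC offset, also with the block, list medians were 0.01 for deadenylases, -0.07 for decapping, -0.06 for the exosome and 0.00 for other binding proteins. Called lower with the offset, with and without the block, were 1 exosome gene (EXOSC3), 2 other binding proteins (CELF1 and TIA1), 1 regulator (MAPK12) and 1 target (IL11). MAPK12 shares 2763 exon bases with HDAC10 on its own strand. The block with GC offset also called 1 deadenylase higher (PAN2) and 3 decapping genes lower (LSM3, LSM5 and LSM7). DESeq2 called 2 other binding proteins lower. No count filter called 1 decapping gene (LSM5) and 1 other binding protein (TIA1) lower, 2 regulators (DUSP1 and MAPKAPK2) higher and 19 targets higher. The unfiltered log2(FPKM + 1) called 5 targets, with a median of 0.23.

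Leaving out 1 library gave 0 to 1 deadenylases higher and 0 to 1 lower, 0 to 1 decapping genes lower, 0 to 1 exosome genes lower, 0 to 3 other binding proteins lower, 1 to 2 regulators higher and 0 to 1 lower, and 7 to 15 targets higher. Medians ranged from -0.12 to -0.07 for decapping, -0.14 to -0.04 for the exosome and -0.17 to -0.06 for other binding proteins. They ranged from -0.02 to 0.04 for regulators and 0.31 to 0.50 for targets. Without SCC replicate 1 the medians were -0.04 for deadenylases, -0.07 for decapping and -0.04 for the exosome. In that fit they were -0.06 for other binding proteins and -0.01 for regulators.

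For genes with 0, 1, and 2 or more nonamers the GC offset gave 414, 40 and 15 called higher, 152 and 14 called lower in the first 2 classes, and medians of 0.00, 0.03 and 0.00. Leaving out 1 library gave 78 to 548, 9 to 40 and 4 to 13 higher, and 2 to 234, 0 to 32 and 0 to 12 lower. Each of these counts was highest without SCC replicate 1, which tied with SCC replicate 2 at 13. Medians ranged from -0.05 to 0.00 with 1 site and -0.08 to -0.03 with 2 or more. With the heptamer the medians were 0.04, -0.01 and -0.05 for genes with 0, 1, and 2 or more. Reading the longest UTR, chosen after seeing the data, gave the same medians of 0.02, -0.02 and -0.05, and the targets without DUSP1, likewise chosen later, are given in the text.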
